A study of Mus musculus with 58 samples.

Results

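The 3 CYP1 genes of the mouse, Cyp1a1, Cyp1a2 and Cyp1b1, were followed in 3 tissues, lung, forestomach and liver, after male Muta™Mouse had been dosed with indeno(1,2,3-cd)pyrene (IP), a polycyclic aromatic hydrocarbon. They were found by matching the transcript accession of each array probe to RefSeq, which named 26413 of 55681 probes for 20018 genes, and each of the 3 had 1 probe. The mice, about 13 weeks old and carrying a lacZ reporter transgene in every group, were gavaged on each of 28 days with the olive oil vehicle or with IP dissolved in it, at a daily dose of 12.5, 25 or 50 mg/kg-bw, and tissue was taken 72 h after the last dose. Lung had 5 mice per group, and liver and forestomach had 4 vehicle mice and 5 mice at each dose, on 58 arrays in all. Each array carried the sample in Cy5 and a universal reference RNA from 11 mouse cell lines in Cy3, and a level is given here as the loess-normalized log2 ratio of Cy5 over Cy3. The methods give 4 IP vehicle mice, whereas the labels number 5 in lung.

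CYP1 enzymes are cytochrome P450 monooxygenases that oxidize planar aromatic compounds. The aryl hydrocarbon receptor (AhR) binds such compounds in the cytosol, moves to the nucleus, pairs with ARNT and binds xenobiotic response elements with the core GCGTG near its target genes. Cyp1a1 is the AhR target with very low basal expression in most tissues, Cyp1a2 is expressed constitutively in hepatocytes, and Cyp1b1 is mainly an extrahepatic enzyme. CYP1A1 and CYP1B1, together with epoxide hydrolase, convert such hydrocarbons to diol epoxides that bind DNA, and the same enzymes also clear them.

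In the GRCm38.p6 annotation of RefSeq, Cyp1a1 lies on chromosome 9 at 57687928 to 57703824, Cyp1a2 on the same chromosome at 57676937 to 57683655, and Cyp1b1 on chromosome 17 at 79706940 to 79715061. The 250 bases before each annotated start are shown because the members differ in the AhR core there. They come from chr9:57697363-57697612 (plus strand) for Cyp1a1, chr9:57683656-57683905 (minus strand) for Cyp1a2 and chr17:79715062-79715311 (minus strand) for Cyp1b1. The Cyp1a1 window ends inside the span of the gene, since that span also covers an upstream start. Capitals mark GCGTG on either strand (CACGC when read on the opposite strand) and TATAAA.
Cyp1a1: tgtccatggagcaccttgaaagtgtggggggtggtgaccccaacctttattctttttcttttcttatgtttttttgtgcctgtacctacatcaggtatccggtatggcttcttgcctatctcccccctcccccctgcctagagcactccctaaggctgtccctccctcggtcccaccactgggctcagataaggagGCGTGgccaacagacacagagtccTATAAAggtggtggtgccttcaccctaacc
Cyp1a2: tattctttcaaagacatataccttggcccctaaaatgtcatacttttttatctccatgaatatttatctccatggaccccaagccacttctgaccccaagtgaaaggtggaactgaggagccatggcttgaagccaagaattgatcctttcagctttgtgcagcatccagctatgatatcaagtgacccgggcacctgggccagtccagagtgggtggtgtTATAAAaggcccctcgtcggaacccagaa
Cyp1b1: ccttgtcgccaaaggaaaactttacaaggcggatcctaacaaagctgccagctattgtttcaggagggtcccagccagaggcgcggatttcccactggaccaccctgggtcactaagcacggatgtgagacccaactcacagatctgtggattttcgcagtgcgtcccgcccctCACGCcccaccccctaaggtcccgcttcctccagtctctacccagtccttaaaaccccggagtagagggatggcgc
The window of Cyp1a1 held 1 GCGTG, 54 to 50 bases before the start, and a TATAAA at 30 to 25 bases. Cyp1b1 held 1 core on the opposite strand, 76 to 72 bases before the start, and no TATAAA. Cyp1a2 held a TATAAA at 29 to 24 bases and no core in this window. Of 27025 promoter windows of the same length, 28.2% held GCGTG and 13% held TATAAA on at least 1 strand, and the longer form TNGCGTG, found in 4.16%, was in none of the 3.

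The signal of a spot was counted as measured where the scanner software placed its Cy5 well above background, which applied to 53 to 90.7% of probes on lung arrays, 37.6 to 78.9% on liver arrays and 43 to 85.9% on forestomach arrays. The highest shares in lung, 83.8 to 90.7%, all came from the same slide, against 53 to 70.4% on the other 4 slides. The lung arrays were spread over the same 5 slides as those of forestomach, and the liver had 3 slides of its own, so liver and slide cannot be told apart. Each dose had its own array column apart from 2 liver arrays, so the effects of dose and of array column cannot be told apart. The tissues carried their own markers. The mean log2 ratio of 5 lung epithelial markers was 6.38 to 7.54 in lung against at most 3.39 elsewhere, that of 5 hepatocyte markers was 7.31 to 8.43 in liver against at most 3.77, and that of 5 squamous markers was 3.41 to 4.32 in forestomach against at most 0.00. Glandular stomach markers varied from 0.96 to 6.74 between forestomach samples. In lung, the 2 brown fat markers ranged from 1.20 to 4.65 in vehicle mice and from 0.63 to 1.61 at 50 mg/kg-bw/day, and the 3 heart muscle markers from 2.63 to 5.23 and from −0.10 to 3.74. Their part in the lung results was not tested. The lung epithelial markers had means of 7.10 and 7.13 in these groups. In whole tissue, fewer cells of a type and less RNA per cell cannot be told apart.

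In vehicle mice, Cyp1a2 was highest in liver. Its log2 ratio was 6.78, 6.57, 5.72 and 6.46 in liver (vehicle mice 1, 2, 3 and 5), against −0.21 to 0.06 in lung and 0.01 to 0.34 in forestomach. Its Cy5 signal was above background in 4 of 4 liver arrays, 1 of 5 lung arrays and 0 of 4 forestomach arrays. Vehicle lung was lower than vehicle liver by a log2 difference of −6.45 (SE 0.19, limma adjusted p = 4.28e-34), in a comparison that called 26.9% of all probes. Against forestomach the log2 difference was −6.25 (SE 0.20, limma adjusted p = 1.8e-32; 22.7% of probes called). On the Cy5 channel after loess and Aquantile, the liver signal was at least 321-fold the background of the forestomach arrays, which is no minimum over other processing. Both log2 differences are against a probe at or near background. Their size moved with the processing, from −7.91 with Cy5 alone to −4.79 with median-centring for lung and from −7.86 to −4.30 for forestomach, called in each case.

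Cyp1b1 had its highest vehicle ratio in forestomach, at −0.79, −0.87, −0.12 and −0.43 in mice 1, 2, 3 and 5. In lung it was −2.04, −2.48, −1.74, −1.88 and −1.76 in mice 1 to 5, all below the forestomach. In liver it was −2.96 to −2.34 with Cy5 above background in 0 of 4 arrays. Forestomach exceeded lung by 1.43 (SE 0.36, limma adjusted p = 0.0011; 19.5% of probes called) and liver by 2.04 (SE 0.37, limma adjusted p = 1.03e-05), at least 3.94-fold on the Cy5 channel. Lung and liver, neighbours in this order, differed by 0.62 (95% interval −0.10 to 1.33, limma adjusted p = 0.183). With median-centring instead of loess, the difference between forestomach and lung was 0.71 (adjusted p = 0.255), and that between lung and liver was 1.66 (adjusted p = 0.00384).

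Cyp1a1 was measured in all 5 vehicle lungs, but in 0 of 4 vehicle livers and 0 of 4 vehicle forestomachs. Its lung ratios were 4.08, 2.11, 1.95, 0.73 and 0.87 in mice 1 to 5, a 10.2-fold range, and vehicle mouse 1 stood highest. In liver the ratios were −0.32 to 0.14 and in forestomach −0.25 to 0.16. Lung exceeded liver by 1.99 (SE 0.71, limma adjusted p = 0.0216) and forestomach by 1.95 (forestomach minus lung −1.95, limma adjusted p = 0.0306). On the Cy5 channel after loess and Aquantile these were at least 2.74-fold and 2.62-fold, which is no minimum over other processing. Both calls were lost without vehicle mouse 1 (1.46, adjusted p = 0.115, and −1.41, adjusted p = 0.144) and with Cy5 alone. Mouse 1 was not the only such case: of 58 fits without 1 array, 56 called lung against liver and 53 called forestomach against lung.

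In lung, Cyp1b1 rose at 50 mg/kg-bw/day, and its ratios at the lower doses also lay above those of all vehicle mice. The ratios at 12.5 mg/kg-bw/day were −1.35, −0.53, −0.46, −1.26 and −0.98 in mice 6 to 10. At 25 mg/kg-bw/day they were 0.07, −0.77, −0.57, 0.05 and −1.09 in mice 11 to 15. At 50 mg/kg-bw/day they were 0.56, 0.52, 3.24, 0.78 and 3.22 in mice 16 to 20. No dosed mouse overlapped the vehicle mice, and mice 18 and 20 lay far above the other 3 of their group. Groups that did not overlap, with the dose higher, were found for 0.42% of probes at 12.5, 0.949% at 25 and 1.26% at 50 mg/kg-bw/day. The spread within the highest dose group was 6.58-fold, against 1.67-fold in vehicle mice.

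**Figure D1:**
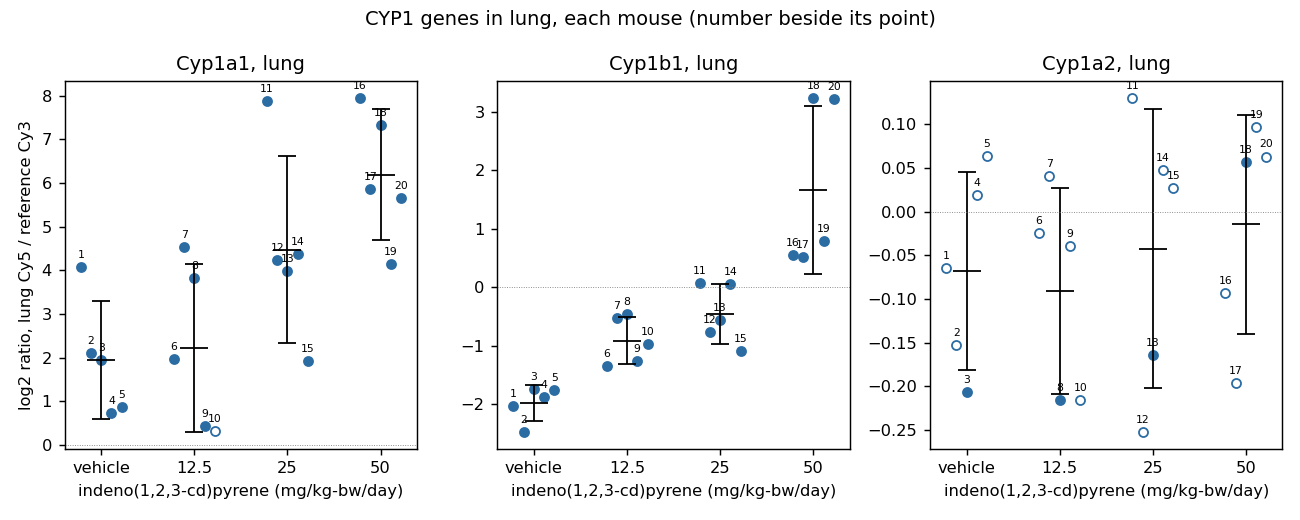
Log2 ratio of Cy5 (lung) over Cy3 (reference) of Cyp1a1, Cyp1b1 and Cyp1a2 by dose in mg/kg-bw/day, 1 point per mouse with its number, filled where Cy5 was well above background, with group mean and SD (n = 5); the vertical scale differs between panels. Cyp1b1 does not overlap the vehicle group at any dose, Cyp1a1 is clear of it at 50 mg/kg-bw/day (4.14 against 4.08), and Cyp1a2 stays between −0.25 and 0.13.

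The Cyp1b1 log2 fold change in lung was 1.06 (SE 0.45, limma adjusted p = 1) at 12.5 mg/kg-bw/day, where 0% of probes were called, and 1.52 (adjusted p = 0.338) at 25 mg/kg-bw/day, where 0.0126% were called. At 50 mg/kg-bw/day it was 3.64 (SE 0.45, 95% interval 2.71 to 4.58, limma adjusted p = 0.00145), 12.5-fold, where 0.079% of probes were called, and Cyp1b1 ranked 3 of all probes by p. The exact permutation test of the 5 against 5 mice gave p = 0.00794, the smallest it allows (two-sided; 0.0357 adjusted over 9 gene and tissue pairs). From 25 to 50 mg/kg-bw/day the difference was 2.12 (95% interval 1.19 to 3.06) with a limma adjusted p of 0.938, and 0% of probes were called. From 12.5 to 25 mg/kg-bw/day it was 0.45 (95% interval −0.48 to 1.39, 0% called). The linear trend was 0.07 per mg/kg-bw/day (limma adjusted p = 0.000326; 0.14% of probes called), and Cyp1b1 ranked 2. Within the 5 slides, each of which held 1 lung of every group, the difference between 50 mg/kg-bw/day and vehicle was 2.59, 3.00, 4.98, 2.54 and 5.10. The call held without any 1 mouse, with a fold change of 3.25 to 3.93 and an adjusted p of at most 0.00773.

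Cyp1a1 in lung varied widely between mice of a group. At 12.5 mg/kg-bw/day the ratios were 1.96, 4.53, 3.82, 0.44 and 0.33 in mice 6 to 10, which overlapped the vehicle mice at both ends. At 25 mg/kg-bw/day they were 7.87, 4.23, 3.99, 4.37 and 1.92 in mice 11 to 15, a 62-fold range, and mice 13 and 15 lay within the vehicle range. At 50 mg/kg-bw/day they were 7.95, 5.86, 7.33, 4.14 and 5.65 in mice 16 to 20, and the lowest of them, mouse 19, was just above the highest vehicle mouse. The Cy5 signal went from 102 to 789.5 scanner units in vehicle mice and reached 32781 in mouse 18, while the Cy3 signal of the spot was 33 to 195 and above background on 4 of 20 arrays.

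The log2 fold change of Cyp1a1 was 0.27 (SE 0.98, limma adjusted p = 1) at 12.5 mg/kg-bw/day and 2.53 (adjusted p = 0.605) at 25 mg/kg-bw/day. The highest dose gave 4.24 (SE 0.98, 95% interval 2.20 to 6.28, limma adjusted p = 0.0837), 18.9-fold, and missed the threshold. The exact permutation test of the single value gave p = 0.00794, the smallest possible (0.0357 adjusted over 9 pairs). That p follows from groups that do not overlap, which held for 1.26% of probes in this direction. With slide as a block, the same difference had a limma adjusted p of 0.00282, and with the Fs statistic one of 0.0408. Of 14 alternatives that keep all mice, 3 called it. The limma adjusted p was 0.18 with Cy5 alone, 0.301 with the scanner's log ratio and 0.686 with median-centring. Within slides the difference was 3.88, 3.75, 5.37, 3.26 and 4.92, higher at 50 mg/kg-bw/day on all 5. The linear trend of 0.09 per mg/kg-bw/day was called (limma adjusted p = 0.0432), but not with median-centring (adjusted p = 0.362), and 7 of the 20 fits without 1 mouse called it. The step from 25 to 50 mg/kg-bw/day was 1.71 (95% interval −0.33 to 3.75) and that from 12.5 to 25 mg/kg-bw/day 2.26 (95% interval 0.22 to 4.30), neither of which was called.

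Cyp1a2 in lung was above background on 1 of 5 arrays in every group, so no fold change is given. In each case it was the array on the slide with the highest shares of probes above background. Its ratios were −0.25 to 0.13 over the 20 lungs. It is the neighbour of Cyp1a1 on chromosome 9.

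The mice with most Cyp1a1 at a dose were not plainly those with most Cyp1b1. Mouse 16 had the highest Cyp1a1 of its group (7.95) and a Cyp1b1 ratio of 0.56, whereas mouse 20 had 5.65 and 3.22, and mouse 18 was high in both. Over the 20 lungs, after subtraction of dose group means, Pearson's r was 0.29 (permutation p = 0.218, 0.436 adjusted over 6 relations) and Spearman's rho 0.38 (permutation p = 0.125, 0.25 adjusted). Without mice 11 and 7, the farthest from the median of Cyp1a1, r was 0.21. Once slide was taken out too, which was chosen after seeing the data, r was 0.72 (permutation p = 0.00057, adjusted p = 0.00342). The shuffles kept dose groups but not slides, so these p values tend to be too small. The relations of Cyp1a2 with the others in lung, r = 0.06 with Cyp1a1 and 0.36 with Cyp1b1 (permutation p = 0.83 and 0.151, adjusted p = 0.854 and 0.436), are those of a probe at background, with rho of 0.02 and 0.39 (permutation p = 0.952 and 0.116, 0.992 and 0.25 adjusted).

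In liver, the members differed in kind, and none was called at any dose, in comparisons that called 0% of probes. Cyp1a2 had bright Cy5 signals that were higher at the upper doses. They were 11580, 21142, 14791 and 11525 scanner units in vehicle mice 1, 2, 3 and 5, and 17298, 15342, 21076.5, 20155 and 20011 in mice 6 to 10. At 25 mg/kg-bw/day, mice 11 to 15 had 26536, 23237, 25408, 33512.5 and 26954. They were 37000, 30126, 56295.5, 37057 and 52660.5 in mice 16 to 20 at 50 mg/kg-bw/day. On this raw scale the groups at 25 and 50 mg/kg-bw/day did not overlap the vehicle group, which also held for 5.19% and 25.2% of all probes in that direction. After quantile normalization of Cy5, mouse 15 (14.35) lay below vehicle mouse 1 (14.38).

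The Cy3 signal of the same spot, which carried the same reference RNA on every array, was also higher on liver arrays at the upper pair of doses but not at 12.5 mg/kg-bw/day. Its median was 489 in vehicle mice, 421 at 12.5, 669 at 25 and 939 at 50 mg/kg-bw/day, whereas on lung and forestomach arrays it was 27 to 242.5. It amounted to 1.37 to 4.12% of Cy5 in liver. The ratio did not follow Cy5. It was 6.78, 6.57, 5.72 and 6.46 in vehicle mice and 6.42, 6.46, 5.64, 5.70 and 6.10 in mice 16 to 20. Among 204 probes with a median Cy5 of at least 10000 in liver and at most 500 in lung, the median Cy3 was higher on liver than on lung arrays for 185, by a median factor of 3.01, against 0.865 over all probes and 8.91 for Cyp1a2. Whether Cy5 signal enters the Cy3 channel at such spots was not tested.

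**Figure D2:**
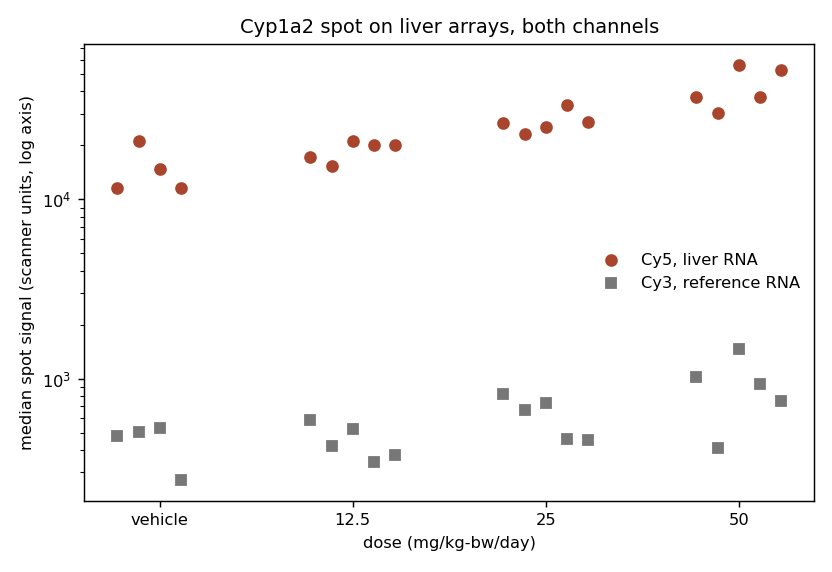
Median spot signal of the Cyp1a2 probe on the 19 liver arrays, on a log axis, by dose in mg/kg-bw/day, with Cy5 (liver RNA) as circles and Cy3 (reference RNA) as squares, 1 of each per mouse. Cy5 goes from 11525 to 21142 in vehicle mice to 30126 to 56295.5 at 50 mg/kg-bw/day, and the Cy3 median from 489 to 939.

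On the ratio, the Cyp1a2 log2 difference in liver was −0.20 (limma adjusted p = 1), −0.11 (adjusted p = 0.952) and −0.32 (SE 0.25, 95% interval −0.84 to 0.20, adjusted p = 0.783) in the order of rising dose. On Cy5 alone, quantile normalized between arrays, it was −0.11 (adjusted p = 0.999), 0.51 (adjusted p = 0.872) and 0.93 (SE 0.17, limma adjusted p = 0.201). With median-centring in place of loess, the ratio at 50 mg/kg-bw/day gave 0.27 (adjusted p = 0.373). The sign at this dose thus depended on the processing, and none of these values was called. Cy5 alone differs from the ratio in channel and in normalization together. On Cy5 alone the groups at 50 mg/kg-bw/day and vehicle did not overlap, which held for 1.17% of probes in that direction, and the exact permutation test gave p = 0.0159 (0.0477 adjusted over 9 pairs), against an exact p of 0.262 for the ratio. Within the 3 liver slides, the Cy5 difference between these groups was 0.72, 1.11 and 1.07, and the difference of the ratio −0.26, −0.05 and −0.18. With Cy5 scaled to the 75th percentile of each array, chosen after seeing the data, the difference was 0.73 (adjusted p = 0.187). The linear trend on Cy5 alone was 0.02 per mg/kg-bw/day (limma adjusted p = 0.0693).

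Cyp1a1 in liver was at background in all vehicle mice and at the lower pair of doses, and above it in 3 of 5 mice at 50 mg/kg-bw/day. Its ratios there were 0.20, −0.19, 1.51, −0.07 and 0.55 in mice 16 to 20, and mouse 18, one of the highest in lung, was highest. The log2 difference was 0.44 (95% interval −0.06 to 0.94, limma adjusted p = 0.739), at least 1.1-fold on the Cy5 channel. Cyp1b1 in liver was measured in 0 of 4 vehicle mice, but in 2, 4 and 4 of 5 mice at the rising doses. Its ratio was −3.28 to −1.99 over all 19 livers, and the difference at 50 mg/kg-bw/day was 0.10 (95% interval −0.28 to 0.48, limma adjusted p = 0.901) against vehicle mice at background. With median-centring it was 0.74 (adjusted p = 0.191) and with the scanner's log ratio 1.68 (adjusted p = 0.475), so its size was not settled. The arrays behind these counts differed in brightness, whose part was not tested: the share of probes well above background was 37.6 to 41.7% on vehicle liver arrays and 40.7 to 78.9% at 50 mg/kg-bw/day. Mouse 16, on the array with 78.9%, was counted for Cyp1a1 at a quantile-normalized log2 Cy5 of 6.34, below vehicle mice 1 (6.41) and 5 (6.43), which were not. It was counted for Cyp1b1 at 6.57, below vehicle mice 2 (6.61), 3 (6.78) and 5 (6.66), which were not.

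In forestomach, 0% of probes were called at any dose and no member was called. Cyp1a1 was measured above background in none of the 4 vehicle mice, and in 2, 2 and 3 of 5 mice in the order of rising dose. At the highest dose its ratios were 2.53, 0.97, 1.24, 0.04 and 0.40 in mice 16 to 20, of which mouse 19 lay within the vehicle range. The log2 difference was 1.03 (SE 0.36, 95% interval 0.28 to 1.79, limma adjusted p = 1), and the exact permutation p was 0.0635. It was 1.62-fold on the Cy5 channel after loess and Aquantile, which is no lower bound since only 3 of 5 mice were measured. Of the mice counted, mouse 8 at 12.5 mg/kg-bw/day and mouse 18 at 50 mg/kg-bw/day were on the slide with the highest shares in lung, which held no vehicle forestomach. Their arrays had 81.2% and 85.9% of probes well above background, against 43 to 52.4% on vehicle arrays. Within the 4 slides with a vehicle array the log2 difference was 2.44, 1.22, 0.03 and 0.24. Cyp1b1 was measured in all 19 forestomachs and its groups overlapped. At 50 mg/kg-bw/day its ratios were −0.03, −0.54, 0.14, −1.04 and −0.03, with a difference of 0.25 (95% interval −0.27 to 0.77, limma adjusted p = 1). Cyp1a2 was above background on 3 of 19 forestomach arrays, those of mice 8, 13 and 18, all on the slide with the highest shares in lung.

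**Figure D3:**
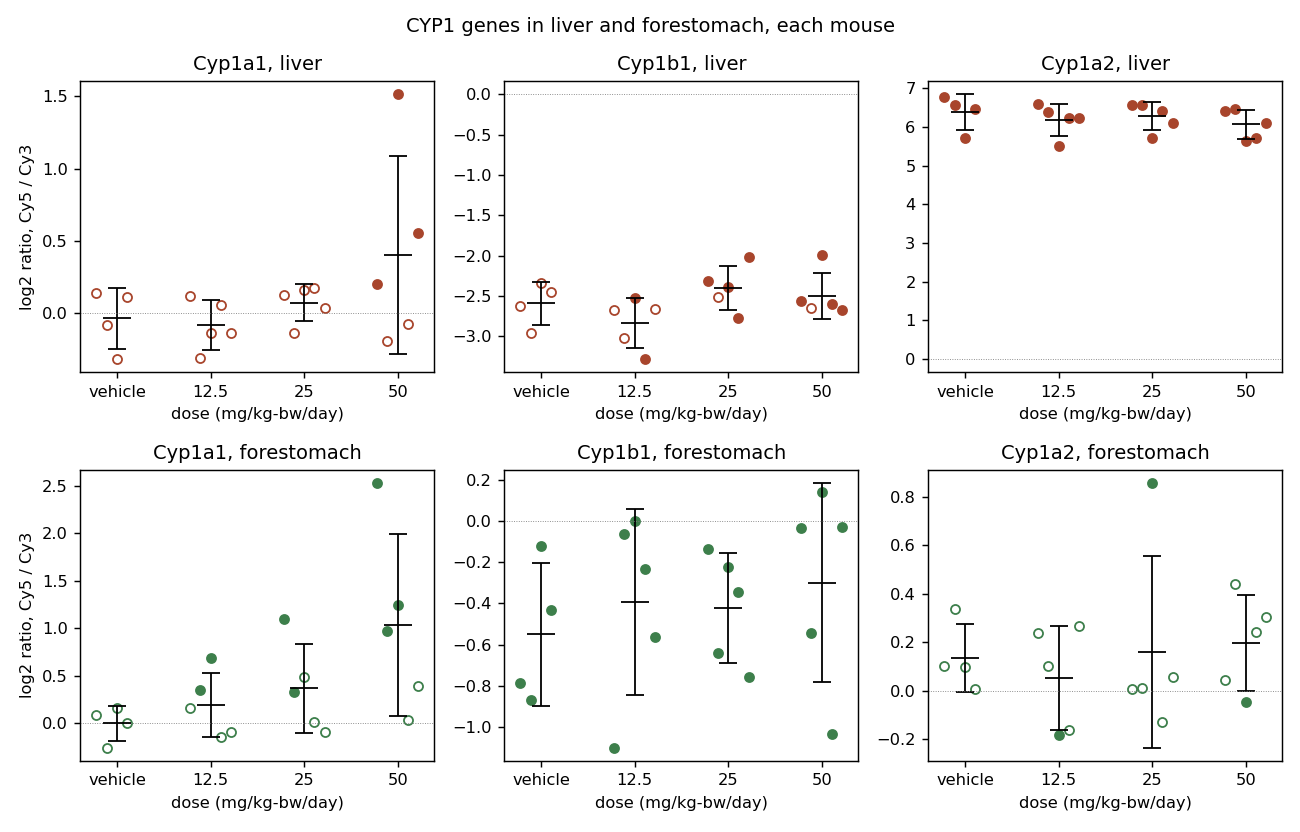
Log2 ratio of Cy5 over Cy3 of each CYP1 gene in liver (upper row) and forestomach (lower row) by dose in mg/kg-bw/day, 1 point per mouse, filled where Cy5 was well above background, with group mean and SD (n = 4 in vehicle groups, 5 otherwise); the vertical scale differs between panels. Cyp1a2 is high in liver at every dose, and Cyp1a1 is flagged above background in 3 of 5 mice of each tissue at 50 mg/kg-bw/day, some of them on brighter arrays than any vehicle mouse.

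The effect of 50 mg/kg-bw/day on Cyp1b1 differed between tissues. It was larger in lung than in liver by a log2 difference of 3.55 (95% interval 2.57 to 4.53, limma adjusted p = 0.00013), where 0.0162% of probes were called, and larger than in forestomach by 3.39 (95% interval 2.41 to 4.37, adjusted p = 0.000408), where 0.0144% were called. Cyp1b1 had the smallest p of all probes in both. With median-centring these were 2.97 (adjusted p = 0.287) and 3.1 (adjusted p = 0.166), which were not called, and with the scanner's log ratio lung minus liver was 2.19 (adjusted p = 0.523), also not called. Cyp1b1 was at background in the vehicle livers. For Cyp1a1 the differences were 3.80 (95% interval 1.83 to 5.77, adjusted p = 0.26) and 3.20 (95% interval 1.23 to 5.17, adjusted p = 0.926), not called. Forestomach and liver differed by 0.59 for Cyp1a1 (95% interval −1.43 to 2.62) and by 0.16 for Cyp1b1 (95% interval −0.85 to 1.17), in a comparison that called 0.00359% of probes. These intervals rest on 1 spread shared by all tissues and so carry the wider spread of lung. In the fits of single tissues, the Cyp1a1 SE at this dose was 0.24 in liver and 0.36 in forestomach, against 0.98 in lung.

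**Figure D4:**
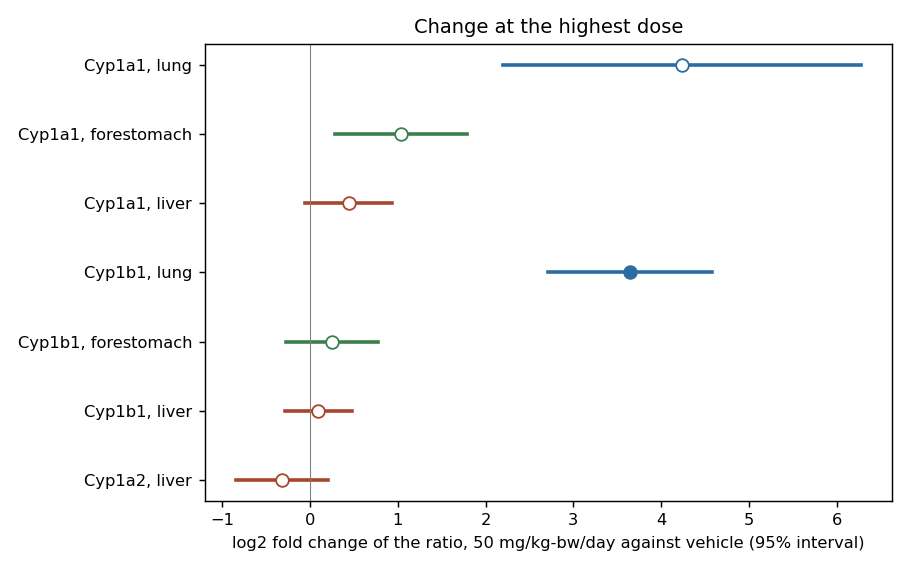
Log2 fold change of the Cy5 over Cy3 ratio at 50 mg/kg-bw/day against vehicle with its 95% interval from limma, for the gene and tissue pairs with a fold change, filled where the adjusted p was at most 0.05. The value of Cyp1b1 in lung, 3.64, is filled; that of Cyp1a1 in lung, 4.24, has the widest interval.

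Across tissues of the same mouse, Cyp1a1 in lung and forestomach deviated together. After subtraction of the dose group means, Pearson's r over 19 mice was 0.73 (permutation p = 0.00013, 0.00078 adjusted over 6 relations) and Spearman's rho 0.77 (permutation p = 0.00075, 0.0045 adjusted). Without mice 11 and 7, r was 0.71 (permutation p = 3e-04). Mouse 16 was highest of its group in both tissues and mouse 19 lowest in both, although the forestomach signal was above background in only 7 of the 19. The lung and forestomach arrays of 18 of the 19 mice lay on the same slide. With slide taken out as well, chosen after seeing the data, r was 0.32 (permutation p = 0.136, adjusted p = 0.204) and rho 0.43 (permutation p = 0.0488), so mouse and slide cannot be told apart here. The shuffles again did not keep slides, so these p values tend to be too small. Between lung and liver r was 0.16 (permutation p = 0.528, adjusted p = 0.792) with a rho of 0.00 (permutation p = 0.992, 0.992 adjusted), and between liver and forestomach 0.08 (permutation p = 0.854, adjusted p = 0.854) with a rho of −0.02 (permutation p = 0.957, 0.992 adjusted). Without the 2 mice farthest from the median, these r were 0.26 and −0.01.

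**Figure D5:**
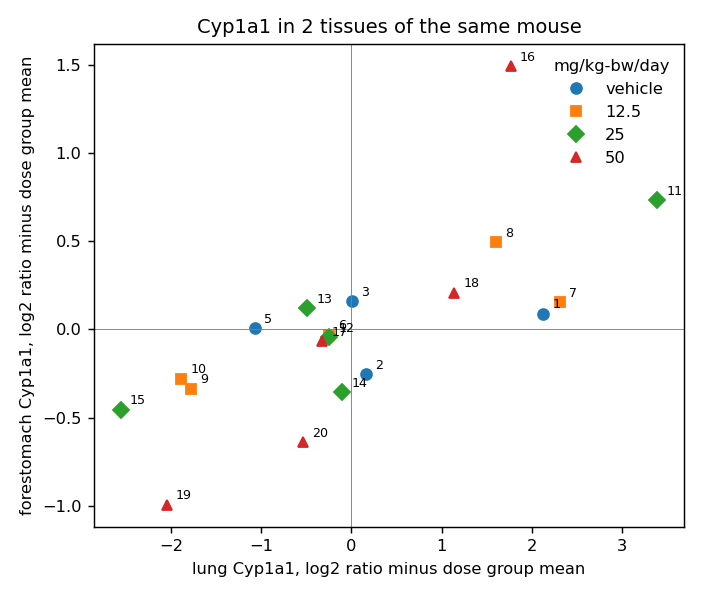
Deviation of the Cyp1a1 log2 ratio from its dose group mean in lung (horizontal) against forestomach (vertical), 1 point per mouse with its number, symbols by dose in mg/kg-bw/day. Pearson's r is 0.73 over the 19 mice, and mouse 16 lies at the upper right and mouse 19 at the lower left.

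The genes with the lung pattern most like each member were named by Pearson's r of log2 ratios over arrays, which share dose, slide and reference. Over 20 lungs and 15364 genes, Ahrr, the AhR repressor that competes with AhR for ARNT, was most like Cyp1b1, with r of 0.95, followed by Psmd4 (0.85), BC048403 (0.84), Zfyve19 (0.82) and Nfatc2 (0.82). Most like Cyp1a1 were Tfdp1 (0.82), Vps35l (0.79), Sdr39u1 (0.78), Hsf4 (0.78) and Edn1 (0.76). Over 19 livers and 12079 genes, Gulo (0.96), Apoa1 (0.95), Apoc4 (0.95), Azgp1 (0.95) and Slc27a5 (0.95) were most like Cyp1a2 on the ratio scale, and their log2 differences at 50 mg/kg-bw/day were −0.43 to −0.33, near the −0.32 of Cyp1a2.

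Of the 23 other genes of the AhR pathway that were listed, 1 was called in lung at 50 mg/kg-bw/day, higher, where 0.079% of all probes were called, and none at the lower doses or in the other tissues. The median log2 difference of the list at that dose was 0.00 in lung, as over all probes, 0.05 in liver (−0.01 over all probes) and 0.00 in forestomach. The called gene was Ahrr. Its lung ratios were −0.83, −0.54, −0.25, −0.65 and −0.54 in vehicle mice 1 to 5 and 1.59, 0.94, 2.49, 1.77 and 2.89 in mice 16 to 20, with mice 18 and 20 highest as for Cyp1b1. The log2 fold change was 2.50 (SE 0.28, limma adjusted p = 0.000359), after 0.81 (adjusted p = 1) and 1.39 (adjusted p = 0.0899) at the lower doses. Cy5 of Ahrr was above background in 3 of 5 vehicle lungs and in all dosed lungs. Ahr itself had a log2 difference of −0.04 (adjusted p = 0.985) and Arnt of 0.07 (adjusted p = 0.877), and Tiparp, the other feedback repressor, of 0.07 (adjusted p = 0.939). Nqo1, a quinone reductase and AhR target, stood at 0.46 (adjusted p = 0.492), and Ephx1, the epoxide hydrolase that acts on the epoxides made by CYP1 enzymes, at 0.41 (SE 0.09, adjusted p = 0.0771). Por, which passes electrons to every microsomal P450, stood at 0.02 (adjusted p = 0.991). Other listed genes went the other way, and none of them was called. The receptor partners Hsp90aa1, Hsp90ab1 and Ptges3 stood at −0.67 (limma adjusted p = 0.37), −0.36 (0.632) and −0.34 (0.228). The targets Gsta2 and Aldh3a1 stood at −0.60 (limma adjusted p = 0.752) and −0.18 (0.883).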

How the data were processed

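Median Cy5 and Cy3 spot intensities, as the authors' scanner software wrote them per the file headers (Agilent Feature Extraction 10.7.3.1 and 11.0.1.1), were used without background subtraction. The software's deposited log10 ratios, and the log2 ratios that the authors normalized by LOWESS and deposited (lung and forestomach; under the given probe names the liver values had an r of −0.01 to 0.01 with the scanner ratios), served as alternatives. Ratios were normalized by loess within arrays, and spots of a probe were averaged without outlier spots (R 4.3.3, limma 3.58.1, statmod 1.5.0). Each tissue was fitted in limma with 4 groups, and tissues were compared in a joint fit, which gives each probe 1 spread over all tissues. P values were two-sided and adjusted by Benjamini and Hochberg over all probes, and calls needed a fold change of 1.5 or more with an adjusted p no higher than 0.05 (trends and differences between effects, the adjusted p alone). Where neither group had more than 1 array above background, no fold change is given. "At least" folds compare the mean Cy5 of the brighter group, after loess and Aquantile without dye swaps, with the higher of the dimmer probe's own signal and the lowest signal above background on each array. They hold for that processing only and are no minimum over the alternatives. Where only part of the brighter group was measured, the same fold is given without "at least". Relations used 1e+05 permutations within dose groups. Where slide was taken out too, the permutations did not keep slides, so those p values tend to be too small.

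Named genes are the members, the 23 AhR pathway genes and, for each member, the 5 genes most like it among those measured in at least 0.5 of the arrays. The marker lists held 31 genes. The members and lists were chosen with earlier results of these data known. The mouse number in the labels was taken to name the same animal across tissues. The median r of residuals of the same mouse was 0.154 between lung and forestomach, 0.0447 between lung and liver and 0.0157 between liver and forestomach, against −0.0371, −0.0233 and −0.00992 for other mice of the dose. In lung and forestomach, 18 of the 19 mice had both arrays on the same slide, so the 0.154 cannot tell mouse from slide. The number of arrays limits the precision.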

Additional observations from a re-analysis of the deposited data

Results flagged for a closer look

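The increase of Cyp1b1 at 50 mg/kg-bw/day differed between tissues by limma's test of the difference itself, by a log2 difference of 3.55 between lung and liver and of 3.39 between lung and forestomach. Neither was called with median-centred arrays (2.97, limma adjusted p = 0.287, and 3.1, adjusted p = 0.166), nor was the former with the scanner's log ratio (2.19, adjusted p = 0.523). Of 36 groups of 4 or 5 mice, 2 held a mouse far from the others by Dixon's test, and chance gives about 1 in 20. These were mouse 18, with a Cyp1b1 log2 ratio of −1.99 in liver at 50 mg/kg-bw/day, the highest of its group and also the mouse with the highest Cyp1b1 in lung, and mouse 13, with a Cyp1a2 log2 ratio of 0.86 in the forestomach group dosed with 25 mg/kg-bw/day, the only one of its group above background. Mouse 13 was also the only one of that group on the slide that held every forestomach array with Cyp1a2 above background.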

How the results depend on the processing

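The 3.64 of Cyp1b1 in lung at 50 mg/kg-bw/day was called under all 14 alternatives that keep all mice, with values from 3.63 to 3.87. Its adjusted p (limma or Fs statistic) reached 0.0486 among them. Aquantile after loess leaves ratios unchanged, so it could not disagree, and keeping outlier spots left this value at 3.64. The fold change of Cyp1a1 at this dose was 4.24 with slide as a block (adjusted p = 0.00282) and by the Fs statistic (adjusted p = 0.0408). It was 4.34 with Cy5 alone and slide as a block, and all of these were called. The other alternatives that keep all mice left Cyp1a1 uncalled, with a limma adjusted p of up to 0.686 (median-centring). Its lung trend was not called with median-centred arrays (0.0904), Cy5 alone (0.0918), Cy5 scaled to the 75th percentile (0.0926), trend and robust (0.0911) or the scanner's log ratio (0.1002). With median-centred arrays, Cyp1a2 in liver was 0.17, 0.22 and 0.27 in the order of rising dose with a trend of 0.0047, and Cyp1b1 in liver at 12.5 was 0.20. Vehicle Cyp1b1 was 1.66 in lung against liver (called) and 0.71 in forestomach against lung (not called), and the differences of its effect were 2.97 for lung minus liver, 3.1 for lung minus forestomach and −0.13 for forestomach minus liver. With Cy5 alone, Cyp1a2 in liver was 0.51 and 0.93 at 25 and 50 with a trend of 0.0216, Cyp1b1 in liver was 0.053 at 12.5, and the effect of Cyp1b1 in forestomach minus liver was −0.0022. Vehicle Cyp1a1 was 1.47 in lung against liver and −1.26 in forestomach against lung, neither called. The latter was −1.75 with normexp, also not called. With Cy5 scaled to the 75th percentile, Cyp1a2 in liver was 0.43 and 0.73 at 25 and 50 with a trend of 0.0172, and Cyp1a1 in liver at 50 was −0.066. With Cy5 alone and slide as a block, Cyp1a2 in liver was 0.55 and 0.98 with a trend of 0.0223, and Cyp1b1 in liver at 12.5 was 0.059. With the scanner's log ratio, Cyp1a1 in lung at 12.5 was −0.42, Cyp1b1 in liver at 12.5 was 0.62, vehicle Cyp1b1 in lung against liver was 3.16 (called), and its effect was 2.19 in lung minus liver (not called) and −1.46 in forestomach minus liver. The 75th percentile, and Cy5 alone with slide as a block, were chosen after seeing the data. The causes were not tested.

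Among relations, Cyp1a2 with Cyp1b1 in lung was −0.26 with median-centred arrays and 0.61 with slide taken out (called, adjusted permutation p = 0.0474). Cyp1a2 in lung is a probe at background. Cyp1a1 with Cyp1a2 in lung was −0.30 without the 2 farthest mice. Cyp1a1 in liver with forestomach was −0.0061 without the 2 farthest mice and −0.15 with slide taken out. With slide taken out, Cyp1a1 with Cyp1b1 in lung was 0.72 (called), and Cyp1a1 in lung with forestomach 0.32 (not called). Calls with slide taken out are not firm, since their permutations did not keep slides.

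With each mouse left out in turn, Cyp1a1 in lung ranged from −0.31 to 0.80 at 12.5, from 3.80 to 4.77 at 50 (called without mouse 11 alone) and from 0.0828 to 0.102 in the trend. Vehicle Cyp1a1 ranged from −2.25 to −1.41 in forestomach against lung and from 1.46 to 2.29 in lung against liver. Cyp1a2 in liver at 25 ranged from −0.33 to 0.025, and Cyp1b1 in liver at 50 from −0.030 to 0.18. With mouse as a replicate block, the joint fit changed no call (Cyp1b1 lung minus liver 3.55, Cyp1a1 vehicle lung against liver 2.00). The mean over all probes of a gene could not be run as an alternative, since each member had 1 probe. Signals near background limit Cyp1a1 outside lung, Cyp1b1 in liver and Cyp1a2 outside liver.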
